A study of Saccharomyces cerevisiae with 16 samples.

Results

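The comparison described here is that of transcript abundance in yeast cells after heat shock with yeast cells in log phase. It was read from libraries that were made for PSI-seq, an assay that maps pseudouridine by sequencing the ends of cDNAs at which reverse transcription stopped. The yeast was BY4741, a MATa haploid laboratory strain of Saccharomyces cerevisiae that carries deletions at HIS3, LEU2, MET17 and URA3. The groups were heat shock (cells grown to log phase in YPD at 30 °C, then held for 30 min at 45 °C in preheated YPD) and log phase (cells of the same culture, taken before the heat shock and named pre-HS in the deposited table). A second log-phase culture, named pre-stat because its other part went on to stationary phase, was sampled in the same way. In all groups the RNA went through repeated rounds of poly(A) selection and alkaline fragmentation, and was then split into a sample reacted with CMCT (+CMCT) and a mock sample (−CMCT). RNA transcribed in vitro (IVT) from amplified copies of the yeast RNA was treated in the same way. The comparison therefore rested on 4 of the 16 libraries: natural RNA −CMCT with each label, and, as a check, IVT RNA −CMCT with each label. The paper does not state which culture gave the RNA amplified for each IVT library, so the IVT ratios are not a control with a known outcome. Each side had 1 library, so no spread between replicates of the heat shock could be estimated, no test was made and no p-value is given. Counts of reverse transcription stops were summed in bins of 500 nt and scaled, without the ribosomal DNA, to reads per 1000000 reads over the bins (RPM). Of 24213 bins with reads, 14092 held 50 or more reads over the 2 natural libraries and were kept. The same sums over annotated genes on 14 chromosomes kept 5010 of 5697 genes, of which 4785 code for proteins, and 687 fell under the minimum. Because these were bulk samples, fewer cells with a transcript and less of that transcript per cell cannot be told apart.

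When S. cerevisiae is heated, the transcription factor Hsf1 drives the genes of chaperones and of protein degradation, and Msn2 and Msn4 drive a wider set of stress genes for trehalose, oxidant defence and the cell wall. Chaperones of the Hsp70 and Hsp90 families refold or hold unfolded proteins, small heat shock proteins bind aggregates and the disaggregase Hsp104 pulls them apart. At the same time mRNAs for ribosomal proteins and for ribosome assembly are known to become scarce. These are the classes of genes by which the members are ordered below.

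The libraries did not follow their labels in these classes. The disaggregase and small heat shock protein list held 9 genes: those of Hsp104, small heat shock proteins and aggregate sorting factors, and also HSP30, HSP31 and OPI10. These 9 genes summed to 805 RPM in the library labelled heat shock and to 26137 in the library labelled log phase (pre-HS). The same sum was 844 in the +CMCT library labelled heat shock and 25129 in the +CMCT library labelled log phase (pre-HS). In the second log-phase culture (pre-stat) it was 830 and 872 without and with CMCT. In IVT RNA −CMCT it was 504 RPM under both labels, whereas in IVT RNA +CMCT it was 522 in the library labelled heat shock and 30084 in the library labelled log phase (pre-HS). Of the reads over the bins, which leave out the ribosomal DNA, the 125 ribosomal protein genes took 15.7% in the natural −CMCT library labelled heat shock. They took 2.05% in the one labelled log phase (pre-HS) and 16% in the pre-stat one. Thus all 4 libraries labelled heat shock were low in heat shock genes and high in ribosomal protein genes, and 3 of the 4 labelled pre-HS were the reverse. The libraries are therefore called by their labels throughout, every ratio is the log2 of labelled heat shock over labelled log phase ("under heat shock" and "under pre-HS" stand for the natural −CMCT libraries with those labels), and results are also given with the pre-stat library in the place of the pre-HS one. Whether columns of the deposited table carry exchanged names was not tested.

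**Figure D1:**
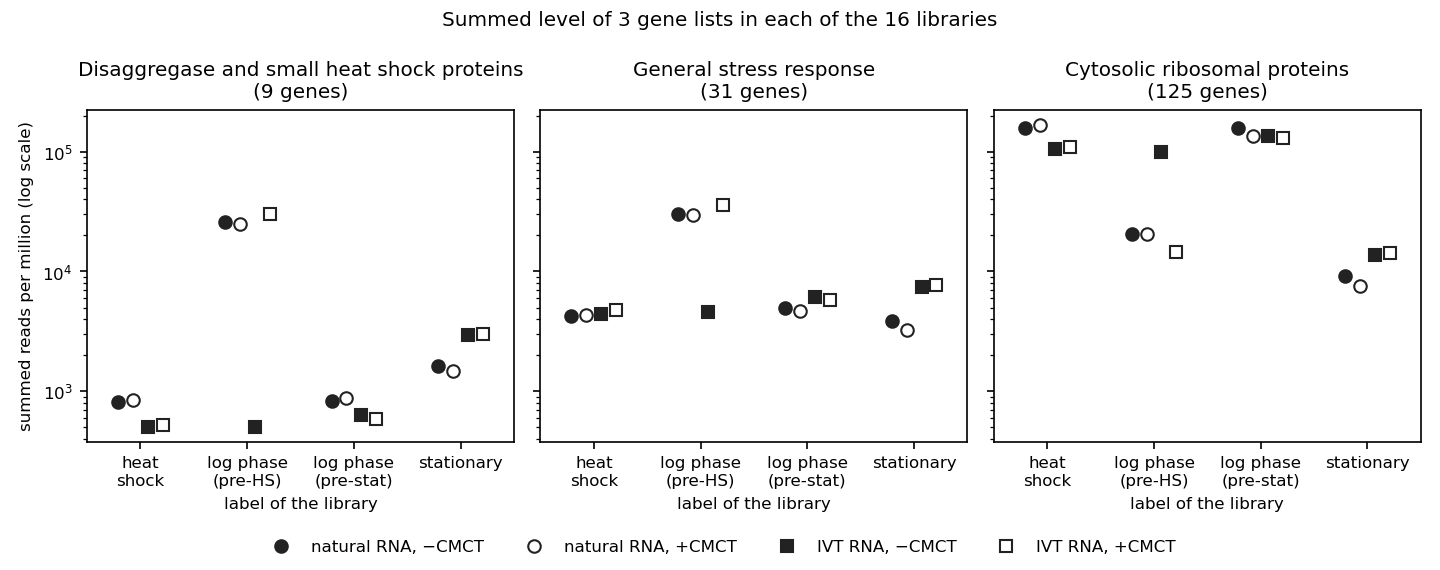
Summed level of 3 gene lists (vertical axis, RPM, log scale) in each of the 16 libraries, grouped by label (heat shock, log phase pre-HS, log phase pre-stat, stationary), with circles for natural RNA, squares for IVT RNA, filled symbols for −CMCT and open symbols for +CMCT. For the heat shock list the libraries labelled heat shock stand at 504 to 844, and of the pre-HS libraries both natural ones and the +CMCT IVT one stand at 25129 to 30084.

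Across genes, the log2 levels of the library labelled heat shock and the library labelled log phase (pre-HS), natural RNA −CMCT, had a Pearson correlation of 0.83 over 5010 genes. The library labelled heat shock correlated at 0.98 with the pre-stat library. The natural pre-HS libraries −CMCT and +CMCT correlated at 0.99 with each other and at 0.95 and 0.96 with the +CMCT IVT pre-HS library, but the −CMCT IVT pre-HS library correlated at 0.99 with the −CMCT IVT library labelled heat shock. That −CMCT IVT pre-HS library correlated at 0.81 with the natural −CMCT library of its own label and at 0.93 with the one labelled heat shock. The −CMCT IVT library labelled heat shock correlated at 0.94 with the natural −CMCT library of its own label. The levels share gene length and the sampling depth of each library, and genes are not independent replicates, so these values are descriptions only. Genes that mark the strain had few reads where the strain lacks or does not use them. URA3 had 0 reads in the library labelled heat shock and 0 in that labelled log phase (pre-HS), LEU2 and MET17 had 6 reads each in the library labelled heat shock and 0 in pre-HS. HIS3, of which a part remains in this strain, had 345 reads in the library labelled heat shock and 78 in pre-HS. MF(ALPHA)1, which encodes the pheromone of the other mating type, had 4 reads in each, and MF(ALPHA)2, which encodes the same pheromone, had 23 in the library labelled heat shock and 6 in pre-HS.

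Depth differed between the libraries. The bins held 8251674 reads in the library labelled heat shock and 3009351 in the library labelled log phase (pre-HS), natural RNA −CMCT, and, in IVT RNA −CMCT, 5461650 under the label heat shock and 3840796 under pre-HS. Ribosomal DNA, left out of these totals, took 22.4% of the reads of the natural library labelled heat shock and 26.5% of those of pre-HS. As a sign of RNA fragmentation, the last 500 nt of 1933 long genes held 1.63 times the reads of their first 500 nt in the library labelled heat shock and 1.46 times in pre-HS, with 1.3 times in pre-stat. The median over these genes of the log2 ratio of last to first 500 nt ran the other way, at 0.74 in the library labelled heat shock and 0.78 in pre-HS, with 0.52 in pre-stat. The part of these differences in the ratios below was not tested.

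The natural libraries differed widely. Of the 14092 bins, 2171 (15.4%) were past 2-fold higher in the library labelled heat shock and 1681 (11.9%) past 2-fold lower, with a median log2 ratio of 0.01 and a range of -6.77 to 5.12. The minimum of 50 reads was on raw counts, so bins and genes high only under heat shock, the deeper library, passed it at a lower RPM. Those high only under pre-HS needed a higher RPM. With a minimum of 20, 50 and 200 reads, higher genes made up 50.3%, 52.9% and 61.8% of gene calls. In IVT RNA −CMCT the same bins gave 180 (1.28%) past 2-fold higher and 499 (3.54%) past 2-fold lower under the label heat shock. Per gene, natural RNA −CMCT gave 750 higher (15%) and 668 lower (13.3%) of 5010 genes, with a median log2 ratio of -0.02, while IVT RNA −CMCT gave 104 higher (2.08%) and 108 lower (2.16%). The +CMCT parts of the same natural RNA gave 620 genes higher (12.4%) and 762 lower (15.2%), among them 557 of the 750 higher genes (74.3%) and 560 of the 668 lower genes (83.8%). Over the pre-stat library in place of pre-HS, only 79 genes (1.58%) were past 2-fold higher in the library labelled heat shock and 48 (0.958%) past 2-fold lower. Both of these comparisons share the library labelled heat shock. Between the log-phase cultures, 765 genes (15.3%) were past 2-fold higher in the pre-stat library than in the pre-HS library and 665 (13.3%) past 2-fold lower, so the libraries that share the label log phase differed in as large a share of genes as the libraries labelled heat shock and pre-HS. The +CMCT IVT libraries gave 1172 higher (23.4%) and 416 lower (8.3%) under the label heat shock. A large difference between the labelled libraries thus appeared in natural RNA with and without CMCT and in IVT RNA with CMCT, and a small one in IVT RNA without CMCT.

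**Figure D2:**
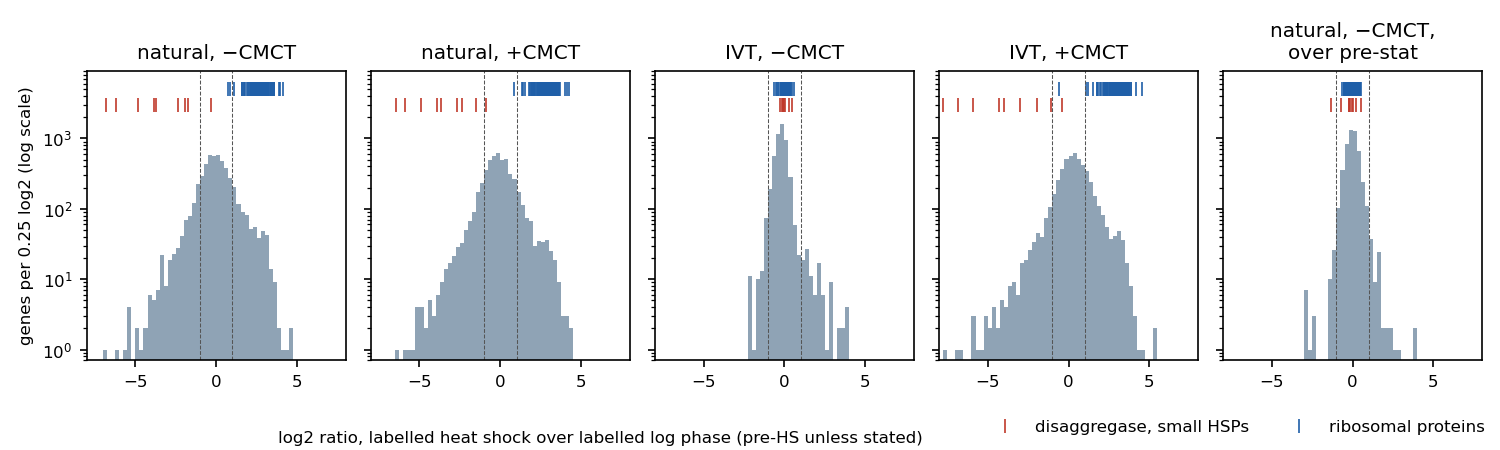
Number of genes (vertical axis, log scale) at each log2 ratio (horizontal axis) of the library labelled heat shock over the library labelled log phase, for natural RNA −CMCT and +CMCT, IVT RNA −CMCT and +CMCT, and natural RNA −CMCT over the pre-stat library. Ticks mark the 9 genes of the disaggregase and small heat shock protein list and the 125 ribosomal protein genes, and dashed lines mark 2-fold. The ticks of the lists lie on opposite sides of 0 in natural RNA and, for all but 1 ribosomal protein gene, in IVT RNA +CMCT, and within 2-fold in IVT RNA −CMCT and, for all but CUR1 at -1.33, over pre-stat.

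The disaggregase and small heat shock protein list held the 2 lowest ratios of all genes, those of HSP12 and HSP26. Of its 9 members, all measured, 8 were past 2-fold lower in the library labelled heat shock, beside 13.3% of all genes, and 0 were higher. The median was -3.71 against -0.02 over all genes. HSP12, a small membrane-bound heat shock protein, had 467 reads (56.6 RPM) in the library labelled heat shock and 18839 reads (6260.2 RPM) in the library labelled log phase (pre-HS), a log2 ratio of -6.79. Its 95% counting interval, which covers counting error only, was -6.92 to -6.66. In IVT RNA −CMCT it had 168 reads (30.8 RPM) under the label heat shock and 115 (29.9 RPM) under pre-HS, and in the natural pre-stat library 47.9 RPM. HSP12 was therefore high in the natural pre-HS libraries and low in the others of this comparison except the +CMCT IVT pre-HS library. In IVT RNA +CMCT it had 31.5 RPM under the label heat shock and 6797 under the label pre-HS. HSP26, a small heat shock protein that binds aggregates, had 135 RPM in the library labelled heat shock and 9981 in that labelled log phase (pre-HS), with 133.4 in pre-stat, and a ratio of -6.21 (-6.30 to -6.12). HSP30, a plasma membrane protein that lowers the activity of the proton pump, had 177.4 RPM in the library labelled heat shock and 5091 in pre-HS, and a ratio of -4.84.

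HSP104 itself had 2475 reads (299.9 RPM) in the library labelled heat shock and 11775 reads (3913 RPM) in the library labelled log phase (pre-HS), a ratio of -3.71 (-3.77 to -3.64). It stood at 343.5 RPM in pre-stat. HSP42, the other small heat shock protein of aggregates, had 38.7 RPM under the label heat shock and 203 under pre-HS, a ratio of -2.39. BTN2 and CUR1, which sort misfolded proteins to compartments, had ratios of -1.75 and -1.95. CUR1 was also past 2-fold lower over the pre-stat library, at -1.33, with 74 reads in the library labelled heat shock and 118 in pre-stat. OPI10, at -0.32 (-0.76 to 0.16), was the member inside 2-fold. HSP31, a chaperone and glyoxalase, had 35 RPM under heat shock and 509.4 under pre-HS. The +CMCT ratios of the list had a median of -3.64, the IVT −CMCT ratios -0.06 and those over pre-stat -0.19.

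Among the cytosolic Hsp70, Hsp110 and Hsp40 chaperones the members divided. Of 15 members, 7 were past 2-fold lower and 4 past 2-fold higher in the library labelled heat shock (median -0.97), beside 13.3% lower and 15% higher of all genes. In IVT RNA −CMCT 1 was lower and 0 higher, beside 2.16% and 2.08% of all genes. SSA4, the Hsp70 that is made on heat stress, had 584 reads (70.8 RPM) in the library labelled heat shock and 8486 (2820 RPM) in pre-HS, a ratio of -5.31 (-5.44 to -5.20), with 69.9 RPM in pre-stat. SSA3 stood at -3.47 and the Hsp110 SSE2 at -3.30. SSA1 and SSA2, which share more than 10% of their reads through near-identical sequence and so are named as shared, had ratios of -2.68 and -2.37. The Hsp40 partners SIS1 and YDJ1 had -1.42 and -0.97, and the exchange factor SSE1 had -1.54. The 4 higher members were those that work at the ribosome on nascent chains. SSB1 and SSB2, also shared, had ratios of 2.37 and 2.19. SSZ1 and ZUO1, which together form the ribosome-associated complex that works with them, were named after their values were seen: SSZ1 had 631.9 RPM in the library labelled heat shock and 169.5 in pre-HS, a ratio of 1.90 (1.77 to 2.03), and ZUO1 had 342.8 under heat shock and 117.6 under pre-HS, a ratio of 1.54. Over pre-stat the 15 ratios lay between -0.59 and 0.57.

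All measured members of the Hsp90 list had ratios under 0. Of 11 members 9 were measured and 6 were past 2-fold lower in the library labelled heat shock, beside 13.3% of all genes, with a median of -2.05. The heat-inducible Hsp90 gene HSP82, of which 11.4% of the reads were shared, had 666 RPM in the library labelled heat shock and 7241 in the library labelled log phase (pre-HS), a ratio of -3.44. Its constitutive paralog HSC82 had 2279 RPM under heat shock and 7357 under pre-HS, a ratio of -1.69 (-1.72 to -1.66). The cyclophilin CPR6 had -3.24, with 243.5 RPM in the library labelled heat shock, 2307 in pre-HS and 242.6 in pre-stat. STI1, which bridges Hsp70 and Hsp90, had -2.95, and AHA1 and HCH1, which activate the Hsp90 ATPase, -2.23 and -2.05. The kinase co-chaperone CDC37, at -0.40, CNS1, at -0.42 (-0.94 to 0.15), and SGT1, at -0.16 (-0.52 to 0.23), were inside 2-fold.

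Chaperones of the mitochondrion and endoplasmic reticulum had medians nearer 0 than the disaggregase and Hsp90 lists. Of 9 mitochondrial members measured, 5 were past 2-fold lower in the library labelled heat shock and 0 higher (median -1.19), beside 13.3% lower and 15% higher of all genes. HSP78, the mitochondrial disaggregase, had 89.6 RPM in the library labelled heat shock and 936.4 in pre-HS, a ratio of -3.38 (-3.51 to -3.27). HSP60 and HSP10, which form the chaperonin, had ratios of -2.19 and -2.11, and MGE1, the exchange factor of the import motor, had 0.82 (0.55 to 1.12). Of 8 endoplasmic reticulum members, 3 were lower (13.3% of all genes were): ERO1, the oxidase that drives disulfide formation, at -2.80 (52.7 RPM under heat shock and 368.9 under pre-HS), SCJ1 at -1.18 and MPD1 at -1.15. PDI1 had -0.82 and SEC63, of the translocon, 0.60. KAR2, the Hsp70 of the endoplasmic reticulum, lies on a chromosome without gene sums, and its 2 bins, placed from the positions of modification sites listed by the study, had ratios of -2.44 and -2.62.

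Most proteasome genes were on the low side of 0 but within 2-fold. Of 35 members measured, 5 were past 2-fold lower in the library labelled heat shock and 0 higher, a share close to the 13.3% of all genes that were lower. The median was -0.55, against -0.02 over all genes, with a range of -2.53 to 0.05. The polyubiquitin gene UBI4, shared at 16.6% of its reads, had 186.3 RPM in the library labelled heat shock and 1079 in pre-HS. The ubiquitin-conjugating enzyme UBC5 had 77 reads in each, a ratio of -1.46 once scaled to depth (9.33 RPM under heat shock and 25.6 under pre-HS). RPN4, the transcription factor of proteasome genes, had -1.06. CDC48, the segregase that unfolds ubiquitinated proteins, had -0.59, with 732.8 RPM under heat shock and 1106 under pre-HS, and RPN2 and RPN1, of the proteasome base, had -0.61 and -0.54. PRE5, of the catalytic core, had the highest ratio, 0.05.

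The general stress response list had the largest number of lower genes of the 19 lists. This number grows with the size of a list, and the disaggregase list had 8 of 9 lower and a lower median (-3.71). The general stress response list had 31 measured members, which include HSP12 and HSP26 of the list above. Of these, 27 were past 2-fold lower in the library labelled heat shock, beside 13.3% of all genes, and 0 higher. The median was -2.27, beside -0.10 in IVT RNA −CMCT and -0.12 over pre-stat. DDR2, a stress-induced gene, had 53 reads (6.42 RPM) in the library labelled heat shock and 1036 (344.3 RPM) in the library labelled log phase (pre-HS), with 9.39 RPM in pre-stat, a ratio of -5.72 (-6.17 to -5.35). ALD3, an aldehyde dehydrogenase, had 19.9 RPM under heat shock and 559.6 under pre-HS, a ratio of -4.81. HOR7, a stress-induced gene, had 708.1 RPM under heat shock and 2913 under pre-HS, a ratio of -2.04. GLK1, glucokinase, had 345.6 RPM under heat shock and 1381 under pre-HS, a ratio of -2.00. The cytosolic catalase CTT1 stood at -2.73 (13 RPM under heat shock and 86.7 under pre-HS), and the peroxiredoxin AHP1 at -1.57. TSA1, the major cytosolic peroxiredoxin, had the highest ratio of the list, 0.28, with 817.8 RPM in the library labelled heat shock and 673.9 in pre-HS. CYC7, an isoform of cytochrome c, was lower over pre-HS (-3.69) and past 2-fold higher over pre-stat (1.09), on 26 reads in the library labelled heat shock, 126 in pre-HS and 7 in pre-stat.

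Trehalose and glycogen genes went the same way for the most part. Of 13 members measured, 8 were past 2-fold lower and 1 past 2-fold higher in the library labelled heat shock (median -1.08), beside 13.3% lower and 15% higher of all genes. TSL1, the regulatory subunit of trehalose synthase, had 49.7 RPM in the library labelled heat shock and 417 in pre-HS, a ratio of -3.07 (-3.23 to -2.91). TPS1, the synthase, had -1.86, and NTH1, the trehalase that breaks trehalose down, -2.41. PGM2, a phosphoglucomutase, had -2.34. The glycogen synthase paralogs stood apart: GSY2 had -1.01, with 88.6 RPM under heat shock and 178.8 under pre-HS, and GSY1 had 1.53, with 36.2 under heat shock and 12.3 under pre-HS.

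In the cell wall list 8 of 17 measured members were past 2-fold lower and 4 past 2-fold higher in the library labelled heat shock. Of all genes 13.3% were lower and 15% higher. The list median was -0.81, beside -0.01 in IVT RNA −CMCT and -0.09 over pre-stat. PST1, a cell wall protein induced through the cell wall integrity pathway, had 774 reads (93.8 RPM) in the library labelled heat shock, 4870 (1618 RPM) in the library labelled log phase (pre-HS) and 93.1 RPM in pre-stat, a ratio of -4.11 (-4.22 to -4.00). SLT2, the MAP kinase of that pathway, had -2.82. The mannoprotein SED1 had -1.98, while the glucan-remodelling enzymes SCW10 and SCW4 had 2.33 and 2.03. BGL2, an endoglucanase, had -0.81 and GAS1, a glucan transferase, 1.07, and CCW12, a structural mannoprotein, had 0.65.

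**Figure D3:**
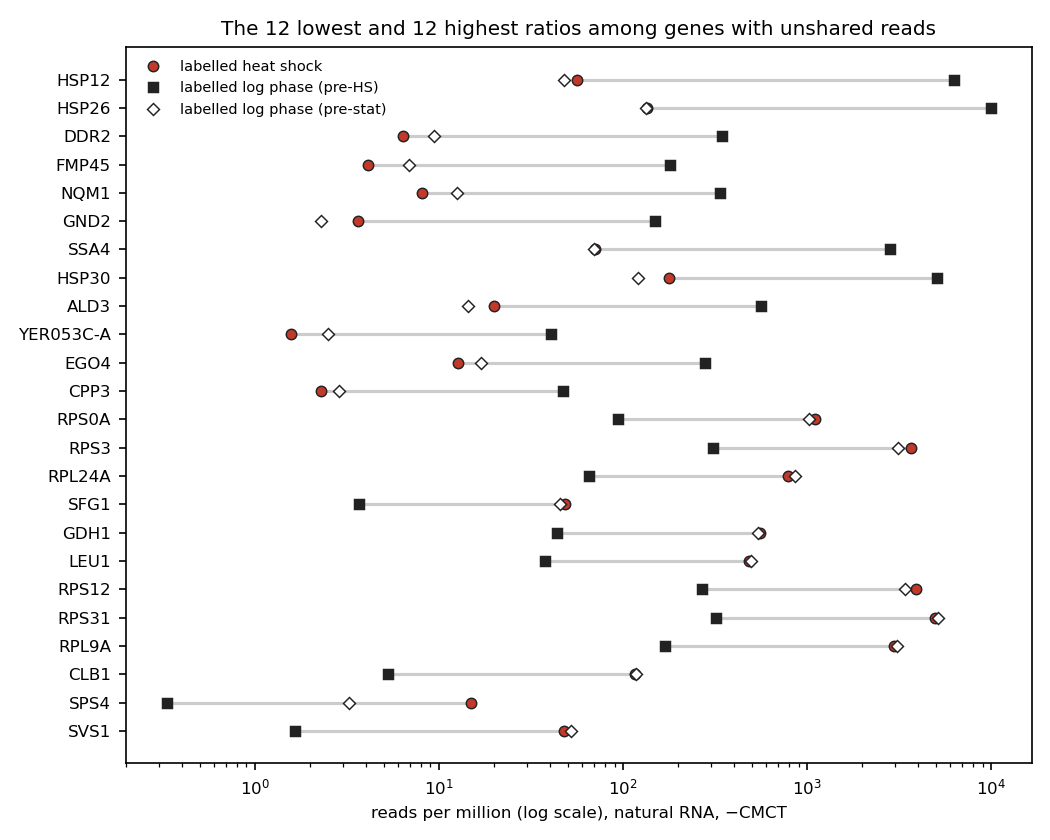
RPM (horizontal axis, log scale) of the 12 genes with the lowest and the 12 with the highest ratio among genes under 10% shared reads, natural RNA −CMCT, with circles for the library labelled heat shock, squares for log phase (pre-HS) and diamonds for log phase (pre-stat). The diamond lies close to the circle and far from the square for all genes but SPS4, which had 15, 0.332 and 3.26 RPM in the 3 libraries.

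Several genes outside the lists also had ratios under -4. FMP45, a membrane protein of the eisosome compartment, had 34 reads in the library labelled heat shock and 540 in pre-HS, a ratio of -5.41 (-5.99 to -4.94). NQM1 and GND2, enzymes of the pentose phosphate pathway, had -5.35 and -5.32. GND2 had 3.64 RPM in the library labelled heat shock, 149.5 in pre-HS and 2.3 in pre-stat. EGO4, CPP3 and YER053C-A had ratios of -4.44, -4.30 and -4.60, on 105, 19 and 13 reads in the library labelled heat shock. The lowest bins were chr6:107000-107499, over HSP12, with 338 reads in the library labelled heat shock and 13456 in pre-HS (-6.77), and chr2:382000-382499, over HSP26, with 850 under heat shock and 23421 under pre-HS (-6.24), in the positions of the deposited table.

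Ribosomal protein genes formed the largest block of higher genes. Of 125 measured, 123 (against 15% of all genes) were past 2-fold higher in the library labelled heat shock and 0 lower, with a median of 2.80. They had no call in either direction in IVT RNA −CMCT (median 0.00, range -0.63 to 0.59) or over pre-stat (median -0.09, range -0.66 to 0.51). Many ribosomal protein genes are duplicated, and in 32 of the 125 over 10% of the reads lay at positions whose counts recur elsewhere. Among the 93 others, 91 were higher, with a median of 2.77 and a range of 0.75 to 4.13. RPS31, which encodes a ubiquitin fused to a small-subunit protein, had 41181 reads (4991 RPM) in the library labelled heat shock and 970 (322.3 RPM) in the library labelled log phase (pre-HS), with 5143 RPM in pre-stat, a ratio of 3.95 (3.86 to 4.05). RPS12 had 3932 RPM under heat shock and 267.5 under pre-HS, a ratio of 3.88. RPS3 had 3656 RPM under heat shock and 307 under pre-HS, a ratio of 3.57. Both are small-subunit proteins. RPL2B and RPL1B, among the members with the most reads but shared at 22.3% and 68.1%, had 3.31 and 3.23. The 2 members inside 2-fold were RPL22B, at 0.75, with 89.6 RPM under heat shock and 52.8 under pre-HS, and RPP1, at 0.88, which the name pattern took in although it encodes a subunit of RNase P.

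Duplicated pairs could differ. RPL9A had 24500 reads (2969 RPM) in the library labelled heat shock and 509 (169.1) in pre-HS, a ratio of 4.13 (4.01 to 4.26). Its paralog RPL9B, shared at 17.6%, had 1193 RPM under heat shock and 401.4 under pre-HS, a ratio of 1.57. RPS9A had 313.6 RPM under heat shock and 145.5 under pre-HS, a ratio of 1.10. A bin over its paralog RPS9B, chr2:605500-605999, had the highest ratio of all bins, 5.12, with 1141 reads in the library labelled heat shock and 11 in pre-HS. With CMCT the ratio of this bin was 4.17, and over pre-stat it was 0.90. A bin named because it was the highest is not a measure of the whole RPS9B gene, so it does not measure the difference from RPS9A. The 55 genes of mitochondrial ribosomal proteins, in contrast, had a median of 0.07 and a range of -0.52 to 1.12. Of these, 1 was past 2-fold higher and 0 lower, beside 15% higher and 13.3% lower of all genes.

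**Figure D4:**
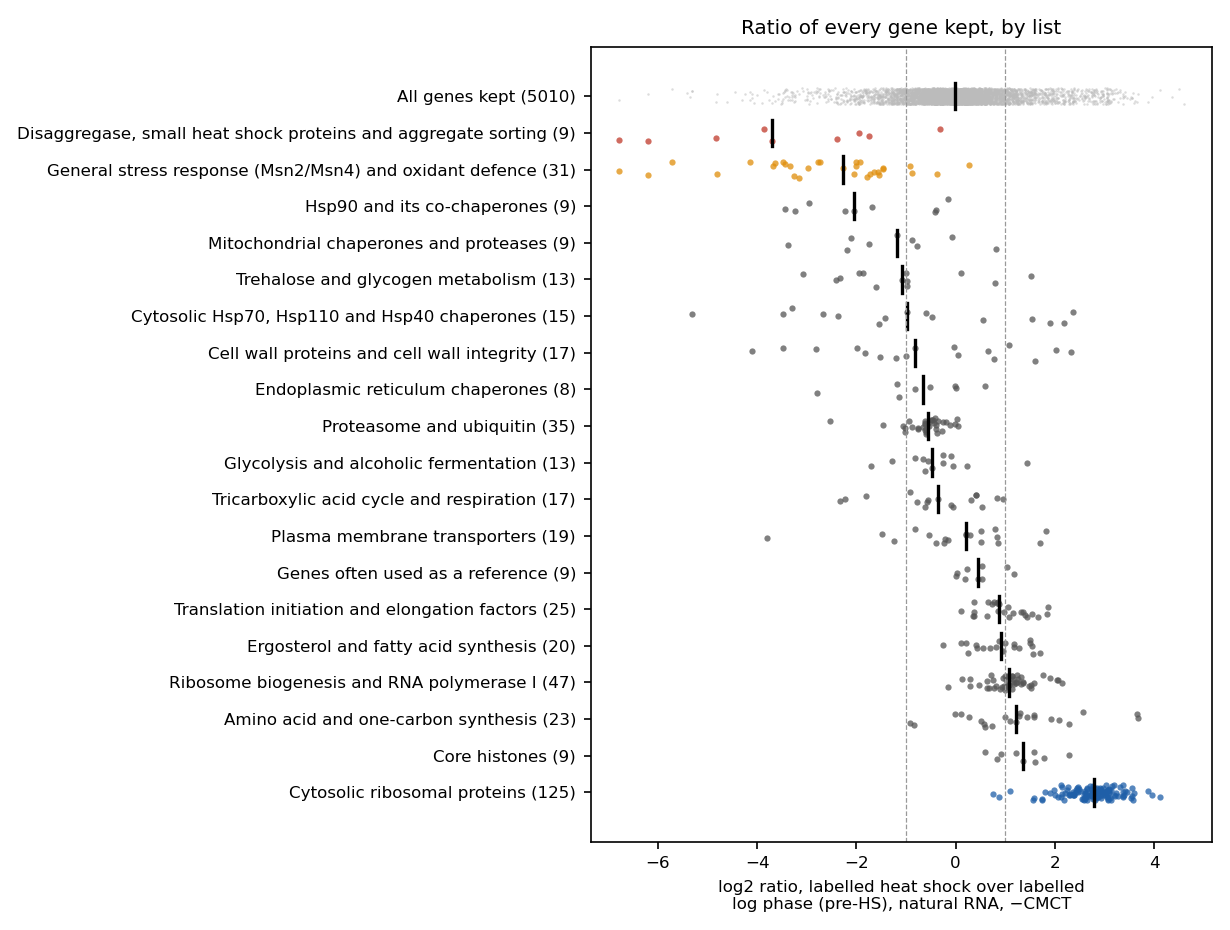
Log2 ratio of the library labelled heat shock over the library labelled log phase (pre-HS), natural RNA −CMCT (horizontal axis), of each measured member of the 19 lists and of all 5010 genes, with a bar at each median, dashed lines at 2-fold and the number of genes in parentheses. Medians run from -3.71 for the disaggregase and small heat shock protein list to 2.80 for cytosolic ribosomal proteins.

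Ribosome assembly and translation factor genes were higher, with smaller medians than the ribosomal protein genes. Of 47 genes of ribosome biogenesis and RNA polymerase I, 29 were past 2-fold higher and 0 lower in the library labelled heat shock (median 1.08). Of all genes 15% were higher and 13.3% lower. NOP56, of the box C/D snoRNPs, had 439.3 RPM in the library labelled heat shock and 98.7 in pre-HS, a ratio of 2.15 (1.98 to 2.33). CBF5, the pseudouridine synthase of box H/ACA snoRNPs, had 501.4 RPM under heat shock and 146.5 under pre-HS, a ratio of 1.77 (1.63 to 1.92), and GAR1 of the same particles had 2.07. NOP1, the methyltransferase, had 1.36, NSR1, nucleolin, 0.30, and SPB4, a helicase, -0.16 (-0.54 to 0.26). Of 25 translation factors 11 were higher, beside the same 15% of all genes, and 0 lower (median 0.88). YEF3, elongation factor eEF3, had 3476 RPM under heat shock and 1316 under pre-HS, a ratio of 1.40. EFT1 and EFT2, which encode eEF2 and share 75.2% and 73.1% of their reads, had 1.84 and 1.86, and TEF1 and TEF2, which encode eEF1A and share 90.3% and 89.2%, had 0.78 and 0.74. TIF4632, an isoform of eIF4G, had the lowest ratio, 0.11.

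Lists of biosynthetic genes had medians over 0 and no member past 2-fold lower. Of all genes 15% were past 2-fold higher and 13.3% lower. In the amino acid and one-carbon list 13 of 23 members were past 2-fold higher and 0 lower (median 1.22). LEU1, of leucine synthesis, had 3978 reads (482.1 RPM) in the library labelled heat shock, 113 (37.5 RPM) in pre-HS and 499.1 RPM in pre-stat, a ratio of 3.67 (3.41 to 3.97). GDH1, which makes glutamate from ammonium, had 554.9 RPM under heat shock and 43.9 under pre-HS, a ratio of 3.65. SHM2, the cytosolic serine hydroxymethyltransferase, had 1.29, ADE17, of purine synthesis, 2.28, and GLN1, glutamine synthetase, -0.02. LYS1, of lysine synthesis, had the lowest ratio, -0.91. Of 20 ergosterol and fatty acid genes 8 were higher (15% of all genes were) and 0 lower (median 0.91), with ERG2 at 1.71, ERG10 at 1.51, FAS2 at 1.55 and ERG11 at 0.42, and ERG5 lowest at -0.25. Of 9 histone genes 6 were higher (15% of all genes were) and 0 lower (median 1.36). HTA2 had 602.5 RPM in the library labelled heat shock and 123.9 in pre-HS, a ratio of 2.28, while HTB1 had 0.59. In IVT RNA −CMCT the medians were -0.03 for the amino acid list, 0.00 for the ergosterol and fatty acid list and 0.01 for the histones, beside -0.17 over all genes.

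Central carbon metabolism had members on both sides. In glycolysis 2 of 13 measured members were past 2-fold lower in the library labelled heat shock and 1 past 2-fold higher (median -0.47), beside 13.3% lower and 15% higher of all genes. PGK1 had 74684 reads (9051 RPM) in the library labelled heat shock and 66300 (22031 RPM) in pre-HS, a ratio of -1.28 (-1.30 to -1.27). The enolases ENO1 and ENO2, shared at 23% and 14.2%, had -1.71 and -0.81. TDH3, glyceraldehyde-3-phosphate dehydrogenase, shared at 13.4%, had -0.55, ADH1 had -0.47, and HXK2, the main hexokinase on glucose, had 1.43, with 1053 RPM under heat shock and 391.8 under pre-HS. FBA1, aldolase, read only by bins, had -0.08 and -0.04. In the tricarboxylic acid and respiration list 3 of 17 were lower (13.3% of all genes were) and 0 higher, namely CIT1, IDH2 and IDH1 at -2.33, -2.24 and -1.80. POR1, the porin of the outer membrane, had -0.62, ACO1, aconitase, -0.91 and LSC1 0.96. Among 19 plasma membrane transporters 3 were lower and 2 higher (median 0.20), close to the 13.3% lower and 15% higher of all genes. HXT5, a hexose transporter of slowly growing cells, had -3.80 (13.9 RPM under heat shock and 195.7 under pre-HS), HXT2 1.82, the phosphate transporter PHO84 -1.25 and the proton pump PMA1 -0.21.

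Genes often used as a reference did not all have a ratio near 0. ACT1 had 854.9 RPM in the library labelled heat shock, 836.7 in the library labelled log phase (pre-HS) and 1014 in pre-stat, a ratio of 0.03 (-0.03 to 0.10). UBC6 had 0.00 (-0.34 to 0.38). PDA1 had 0.54, and the tubulin genes TUB1 and TUB2 were past 2-fold higher, at 1.17 and 1.03. The list median was 0.46.

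Other genes past 2-fold higher under the label heat shock included a cyclin and genes of mating. SVS1, a serine- and threonine-rich wall protein, had 397 reads (48.1 RPM) in the library labelled heat shock, 5 (1.66 RPM) in pre-HS and 52.5 RPM in pre-stat, a ratio of 4.60 (3.62 to 6.49). CLB1, a mitotic cyclin, had 964 reads under heat shock and 16 under pre-HS, a ratio of 4.37 (3.75 to 5.27), and SFG1, a transcription factor of pseudohyphal growth, had 400 under heat shock and 11 under pre-HS, a ratio of 3.61. SPS4, a gene of sporulation, had 124 reads in the library labelled heat shock and 1 in pre-HS, a ratio of 4.51 (2.99 to 10.81), and was also past 2-fold higher over pre-stat, at 2.14. The a-specific genes, measured to check the strain, were higher too: STE2, the receptor of alpha factor, had 343.4 RPM under heat shock, 35.6 under pre-HS and 332 in pre-stat, BAR1, a protease, had 120.3 under heat shock and 13 under pre-HS, and all 5 measured members had ratios between 2.11 and 3.51.

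On the chromosomes named 10 and 11, where positions of the deposited table did not match the annotation, genes were read only in the bins that hold sites listed by the study. RPS22A had 9685 reads in its upper bin in the library labelled heat shock and 201 in pre-HS, a ratio of 4.13 (3.93 to 4.34). URA1, of pyrimidine synthesis, had 4144 reads under heat shock and 125 under pre-HS, a ratio of 3.58, and OAC1, a mitochondrial oxaloacetate carrier, 1007 under heat shock and 66 under pre-HS, a ratio of 2.46. TEF4, of eEF1B, had 2.45 and 2.20 in its 2 bins, and TMA19, a ribosome-associated protein, 1.79 and 1.80. TDH2 had -1.11. Per chromosome, the share of bins past 2-fold higher lay between 12.4% and 17.9% on the 16 nuclear chromosomes and the share past 2-fold lower between 9.03% and 17%.

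Non-coding RNAs, which mostly lack a poly(A) tail, gave ratios that were less alike between treatments. Of 159 tRNA genes measured, of which 135 had more than 10% shared reads, 116 (73%) were past 2-fold higher and 3 (1.89%) lower in the library labelled heat shock (median 1.82). Of all genes 15% were higher and 13.3% lower. In the +CMCT libraries 56 tRNA genes were higher (35.2%, beside 12.4% of all genes) and 4 lower (median 0.75). In IVT RNA −CMCT 80 were higher (50.3%, beside 2.08% of all genes) and 28 lower (17.6%, beside 2.16%). The tRNA genes thus made up 80 of the 104 genes called higher there. Over pre-stat, 28 tRNA genes were higher (17.6%, beside 1.58% of all genes) and 19 lower (11.9%, beside 0.958%). Of 32 snoRNA genes, 10 were higher (31.2%) and 0 lower without CMCT (median 0.54). With CMCT 4 were higher (12.5%, close to the 12.4% of all genes) and 2 lower (6.25%, beside 15.2% of all genes), with a median of 0.12. TLC1, the telomerase RNA, had 691 reads under heat shock and 50 under pre-HS, a ratio of 2.31 and of 2.09 with CMCT, whereas the U2 RNA gene LSR1 had 917 under heat shock and 230 under pre-HS, a ratio of 0.54 without CMCT and -0.69 with it. In the mitochondrial genome, whose RNAs carry no poly(A) tail in yeast, 13 of 16 bins were higher and 0 lower (median 1.74). Of all bins 15.4% were higher and 11.9% lower. The read minimum was on raw counts summed over both natural libraries, so mitochondrial bins could pass it through the deeper library labelled heat shock alone. The count of higher bins was thus partly fixed by the filter and adds no support. All mitochondrial bins together held 0.0809% of the reads over the bins in the library labelled heat shock and 0.0273% in pre-HS. With CMCT these shares were 0.0188% under heat shock and 0.0226% under pre-HS. The bin M:77000-77499 had 93 reads in the library labelled heat shock and 0 in pre-HS, at least 11.3-fold higher if 3 reads are taken as the floor of that library. The counting interval of its log2 ratio began at 3.17, and with CMCT the ratio was 0.75.

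The share of genes called higher was largest at the highest levels, but level and ratio came from the same 2 libraries. Among the fifth of genes with the highest levels (77.7 RPM or more as the mean of the 2 libraries), 309 of 1002 (30.8%) were past 2-fold higher in the library labelled heat shock and 154 (15.4%) lower. In the other 4 groups of 1002 genes by level, 85 to 144 genes (8.48% to 14.4%) were higher and 110 to 146 (11% to 14.6%) lower. A gene high in either library is placed among the highest levels partly by its ratio. The groups also held the ribosomal protein genes, of which 123 of 125 were higher. Whether abundant genes differed apart from these effects was not tested. The 10 genes with the most reads held 13.6% of gene reads in the library labelled heat shock, 20% in the library labelled log phase (pre-HS) and 15.3% in pre-stat. In all, 3592 genes (71.7%) were within 2-fold between the library labelled heat shock and pre-HS, and 4883 (97.5%) between the library labelled heat shock and pre-stat.

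**Figure D5:**
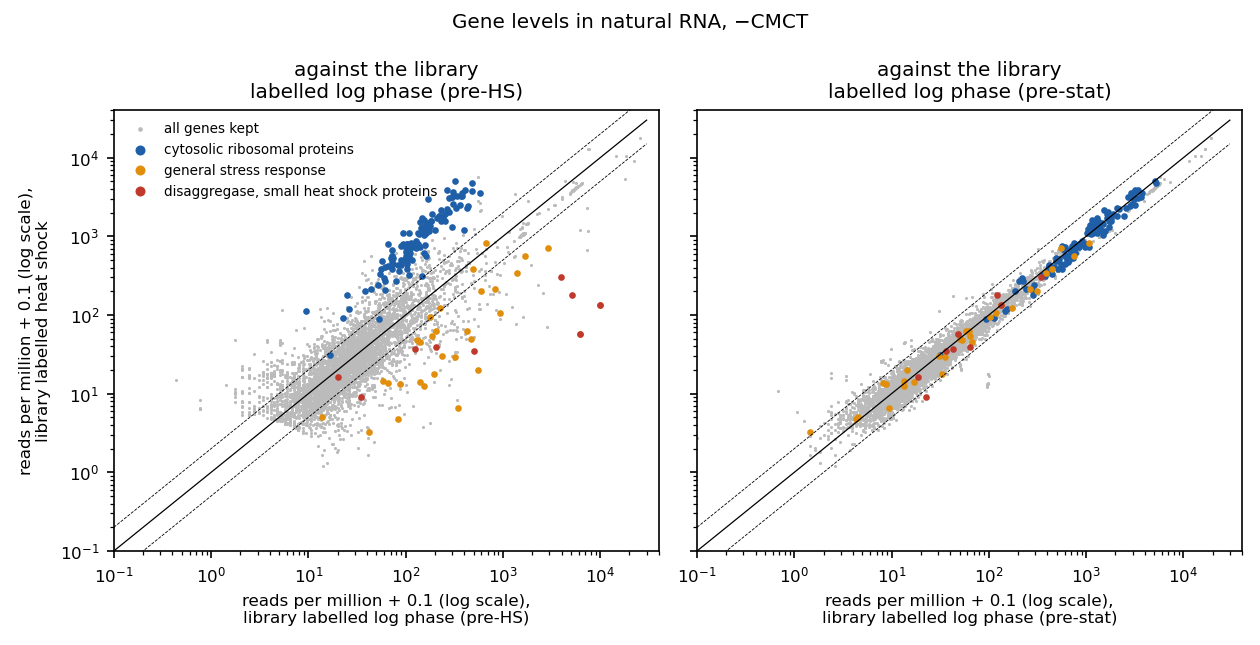
RPM plus 0.1 (log scales) of each of the 5010 genes in the library labelled heat shock (vertical axis) against the library labelled log phase (pre-HS, left; pre-stat, right), natural RNA −CMCT, with lines of equality and dashed lines at 2-fold. On the left 123 of 125 ribosomal protein genes lie above and 27 of 31 stress genes below the dashed lines, and on the right 97.5% of genes lie within 2-fold.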

How the data were processed

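The authors mapped reads with Bowtie 0.12.5 to sacCer3, per the submitters' processing notes, gave reads with several matches to a random locus, and deposited raw counts of cDNA ends per position for 16 libraries, without strand. Counts were summed in bins of 500 nt (ribosomal DNA, chromosome 12 from 450000 to 492000, left out) and over RefSeq gene spans, scaled to each library's total over the bins, and kept with 50 or more reads over the 2 natural libraries. Ratios were log2 after adding 1 read to each count, and a call was a change of 2-fold. The 95% intervals are exact Clopper-Pearson intervals of the share of the 2 counts. They cover counting error only. With 1 library per label no test was possible. Equal counts at paralogs lay within 0 to 13 nt of each other in 9 gene pairs off chromosomes 10 and 11 and 90 to 439 nt apart in 3 pairs on them, so gene sums used 14 chromosomes. Although such reads are said to be placed at random, the same 16 counts recurred at several loci, and genes with 10% or more such reads are named as shared. In natural RNA −CMCT, recurring positions held 34.6% of the reads over the bins under the label heat shock and 38.1% under pre-HS. In IVT RNA −CMCT they held 45.6% and 46.7%. These reads are part of the totals used for scaling. Without strand, overlapping and antisense genes cannot be told apart. Named genes were the 12 highest and 12 lowest ratios among genes under that limit, and of each list the 2 to 4 members with the most reads and those with the highest and lowest ratio; further members are named as examples chosen with their values known. The members and the 19 lists were chosen with earlier results of these data known. Alternatives were other scalings, pseudocounts, read minimums, bin widths and gene spans, recurring or strongest positions left out, the CMCT-treated libraries and the pre-stat culture. Intron and promoter comparisons were not run. The ratios and intervals were run on simulated counts that held counting error only, the setting that the intervals assume. Spread between libraries and recurring reads were not simulated. Python 3.11.15, numpy 2.4.6, pandas 2.3.3 and SciPy 1.17.1 were used.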

Additional observations from a re-analysis of the deposited data

Results flagged for a closer look

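The IVT RNA +CMCT library labelled log phase (pre-HS) lies outside the −CMCT comparison of natural and IVT RNA. It was singled out because the 9 genes of the disaggregase and small heat shock protein list summed to 522.4 RPM in the IVT RNA +CMCT library labelled heat shock, to 30083.9 in this library and to 504.1 in the IVT RNA −CMCT library with the same label. Reads over the last against the first 500 nt of long genes had a ratio of 2.15 in the +CMCT IVT library labelled heat shock, 3.09 in this library and 2.06 in its −CMCT counterpart. The part of this in the sum was not tested. No group held enough libraries to look for an outlying sample.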

How the results depend on the processing

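No paired analysis was possible because each condition had 1 library per label and the log-phase columns carry no replicate number. Putting the pre-stat library in the place of pre-HS moved every count: 525 bins higher and 180 lower, 79 genes higher and 48 lower under the label heat shock, and 0 lists with a median of 1 or more and 0 with -1 or less, against 4 and 5 over pre-HS. It turned the medians of the amino acid (-0.09) and ribosomal protein (-0.09) lists and, among the 113 named genes, the log2 ratios of HSP12 0.24, HSP26 0.02, GND2 0.59, SSA4 0.02, HSP30 0.55, ALD3 0.46, SVS1 -0.13, CLB1 -0.00, RPL9A -0.05, RPS31 -0.04, LEU1 -0.05, RPL24A -0.11, SSB1 -0.06, SSB2 -0.06, HSC82 0.09, CPR6 0.00, HCH1 0.26, GSY1 -0.55, HOR7 0.36, EFT2 -0.37, GAS1 -0.02, PST1 0.01, PHO84 0.01, HXT5 0.39, FAS2 -0.48, ERG2 -0.07, SHM2 -0.45, ADE17 -0.09, HOM2 -0.00, HTA2 -0.20, TUB1 -0.43 and RPL2B -0.15. Turned means here that a called ratio changed sign, however near 0 the new value. All the values listed lay inside 2-fold, so the differences were lost over pre-stat and not called in the other direction. No other setting turned a called value, but some moved ratios out of their counting intervals. Among the 113 named genes this held for 50 with CMCT, 31 with totals without mitochondrial and recurring reads and 29 without recurring positions. Of the 19 list medians, 3, 5 and 5 moved under these settings and 6 with a minimum of 200 reads, judged by the interval of the member nearest the median. CMCT-treated natural RNA, other scalings, recurring positions or the strongest position left out, 0.5 reads added and gene spans widened by 100 nt kept every count within 1.5 times. Higher genes made up 52.9% of gene calls, 54.1% with the median ratio set to 0 and 47.5% with totals without mitochondrial and recurring reads. The median of all genes, -0.02, became -0.14 with 10 reads added, -0.11 without recurring positions, -0.12 with CMCT and 0.11 with a minimum of 200 reads. Adding 10 reads gave 1288 bins higher. A minimum of 20 reads gave 3057 bins lower, and one of 200 reads 1290 higher and 579 lower bins and 360 lower genes. Bins of 250 nt gave 3356 higher and bins of 1000 nt 1271 higher, where the numbers of bins were 17315 and 10007. CMCT-treated IVT RNA gave 3986 bins higher and 1182 lower, against 180 and 499. The cause of these moves was not tested. The intron and promoter alternatives were not run. Depth limits genes with few reads, as the counting intervals show, and the heat shock has no replicate.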

Other observations

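A few genes had levels in the library labelled heat shock that differed from both log-phase libraries, natural RNA −CMCT. They were chosen after their values were seen. ERP4, of the p24 family of cargo receptors between endoplasmic reticulum and Golgi, had 1423 reads in the library labelled heat shock, 205 in pre-HS and 222 in pre-stat, with ratios of 1.33 and 2.01. With CMCT its ratio over pre-HS was 0.28, and in IVT RNA −CMCT it was 1.14. ADY2, an acetate transporter, had 88 reads in the library labelled heat shock, 6 in pre-HS and 3 in pre-stat, with a ratio of 2.21 over pre-HS without CMCT and -0.57 with it. YCL048W-A had 22 reads in the library labelled heat shock, 124 in pre-HS and 0 in pre-stat. Of 6 snRNA genes, 4 were past 2-fold higher over pre-stat (median 1.39) and 2 over pre-HS (median 0.34), while with CMCT 0 were higher and 3 lower over pre-HS (median -1.05). Of all genes, 1.58% were higher over pre-stat and 15% over pre-HS, and with CMCT 12.4% were higher and 15.2% lower over pre-HS.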
